A study of Rattus norvegicus with 9 samples.

Results

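Cultured cardiac myocytes of newborn rats that had received siRNA against Yap were compared with myocytes of the same kind that had received a universal negative control siRNA. The comparison used the 6 libraries whose labels name these treatments, 3 per group, out of 9 in the series, and the other 3 (siRNA against Llgl1 and Llgl2) entered only the estimate of spread and a direct contrast. Per the labels, the cells came from Sprague Dawley rats aged 2 days, were freed with a dissociation kit, passed over a Percoll gradient and kept in medium with 15% serum, and after 16 h they were transfected with 2 siRNAs per target at 25 nM each and collected 48 h later. The knockdown was therefore transient, in primary cells, and each library pools the effects of a pair of siRNAs against the same target. The deposited values were FPKM, fragment counts scaled by transcript length and library size, for 14636 genes. Of these, the 10789 that reached 1 FPKM in 3 or more of the 9 libraries were tested.

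The Hippo pathway is a kinase cascade that restrains the coactivators YAP, encoded by Yap1, and TAZ, encoded by Wwtr1. Its core kinases MST and LATS phosphorylate YAP and hold it in the cytoplasm, and unphosphorylated YAP enters the nucleus and works with TEAD transcription factors, since it has no DNA-binding domain of its own. In the heart YAP is known for promoting myocyte proliferation before and shortly after birth, and TEAD factors bind the muscle CAT element found in promoters of several cardiac and smooth muscle genes.

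After Yap siRNA the classical YAP targets, cell cycle genes, genes of the actin cytoskeleton and integrins, sterol synthesis genes and NF-kB-responsive inflammatory genes were mostly lower than after control siRNA. Genes of the thick filament, calcium cycling, potassium and pacemaker channels and fatty acid oxidation were mostly higher. The contractile genes did not move as a block: the alpha myosin heavy chain gene Myh6 was higher and the beta gene Myh7 lower, and Acta1, Acta2 and Nppb were lower. In all, limma's moderated test on log2(FPKM + 1) called 5181 of the tested genes at a Benjamini-Hochberg adjusted p under 0.05, which is 48.0%, with 2217 higher (20.5%) and 2964 lower (27.5%) after Yap siRNA. Most changes were small, since 2817 of the called genes differed by less than 0.5 on the log2 scale, and 260 higher genes (2.41%) and 187 lower genes (1.73%) reached a difference of 1. The median log2 change over all tested genes was -0.07, and counts for a gene list are read against these shares. The Yap siRNA libraries lay wholly above the control libraries in 23.3% of tested genes and wholly below in 31.6%. A lack of overlap in a single gene was therefore common.

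**Figure D1:**
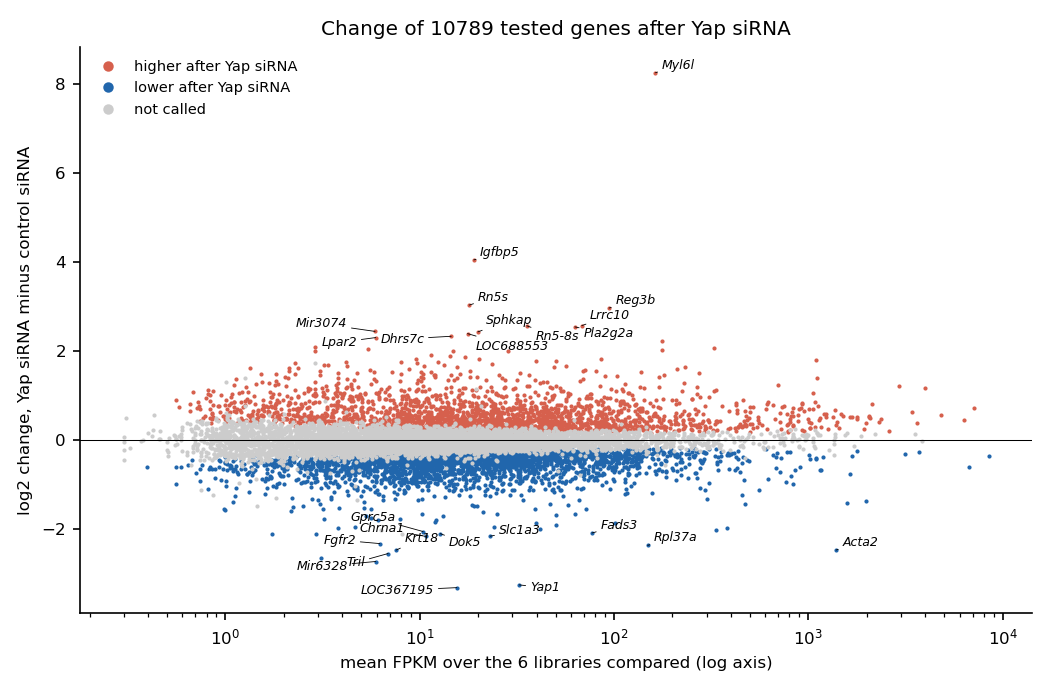
Log2 change of each of the 10789 tested genes (Yap siRNA minus control siRNA, limma on log2(FPKM + 1)) against its mean FPKM over the 6 libraries compared, on a log axis. Red points were called higher (2217), blue points lower (2964) and grey points were not called, and names mark Yap1 and the 12 steepest rises and falls under the naming rule.

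The short sequence GGAATG, or CATTCC on the other strand, is the core that TEAD factors recognise, and it was searched on both strands in the 250 bases before the start of each gene in RefSeq's rat promoter table (build GRCr8). It occurred in 920 of the 8782 tested genes with an entry (10.5%) and in 12.1% of all 33469 windows of that length. Among called genes it occurred in 11.7% of those lower and 9.64% of those higher, and at a difference of 1 or more on the log2 scale in 27 of 135 lower genes (20.0%) and 15 of 195 higher genes (7.69%). These shares describe the letters of the windows only. The 6 windows that follow belong to genes that fell steeply after Yap siRNA and hold the core, shown in capitals. They were chosen after their values were seen, to show where the core lies in 3 classical YAP targets and in 3 genes of the myocyte's stress and actin programme.
Ctgf: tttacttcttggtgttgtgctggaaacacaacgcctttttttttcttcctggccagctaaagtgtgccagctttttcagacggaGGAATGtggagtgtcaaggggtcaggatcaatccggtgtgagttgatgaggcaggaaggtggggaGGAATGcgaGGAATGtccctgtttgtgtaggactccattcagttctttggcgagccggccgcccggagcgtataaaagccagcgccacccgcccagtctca
Cyr61: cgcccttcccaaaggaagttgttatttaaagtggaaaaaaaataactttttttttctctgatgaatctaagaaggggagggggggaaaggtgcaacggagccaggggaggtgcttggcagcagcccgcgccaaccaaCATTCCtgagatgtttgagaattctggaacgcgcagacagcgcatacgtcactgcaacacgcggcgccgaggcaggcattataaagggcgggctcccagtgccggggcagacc
Amotl2: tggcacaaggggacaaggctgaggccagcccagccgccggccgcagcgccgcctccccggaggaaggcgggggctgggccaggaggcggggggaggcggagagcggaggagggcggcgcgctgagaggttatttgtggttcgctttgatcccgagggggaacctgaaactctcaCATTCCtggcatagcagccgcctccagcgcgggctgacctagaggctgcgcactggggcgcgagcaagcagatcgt
Nppb: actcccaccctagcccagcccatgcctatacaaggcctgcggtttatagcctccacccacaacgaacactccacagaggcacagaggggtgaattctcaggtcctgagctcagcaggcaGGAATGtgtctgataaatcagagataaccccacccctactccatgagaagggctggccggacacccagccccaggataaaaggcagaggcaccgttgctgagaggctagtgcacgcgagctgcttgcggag
Acta1: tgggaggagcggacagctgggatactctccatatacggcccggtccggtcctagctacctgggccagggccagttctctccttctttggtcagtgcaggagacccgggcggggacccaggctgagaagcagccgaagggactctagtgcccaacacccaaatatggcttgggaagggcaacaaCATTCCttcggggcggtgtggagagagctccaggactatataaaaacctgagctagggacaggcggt
Acta2: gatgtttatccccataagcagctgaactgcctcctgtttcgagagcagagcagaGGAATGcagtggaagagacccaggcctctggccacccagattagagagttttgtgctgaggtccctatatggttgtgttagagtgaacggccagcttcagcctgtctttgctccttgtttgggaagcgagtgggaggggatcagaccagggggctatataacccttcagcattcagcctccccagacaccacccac
Each runs 5′ to 3′ on the gene's strand and ends at the base before the start. In GRCr8 the Ctgf window (RefSeq symbol Ccn2) is chr1:22624615-22624864 (- strand), that of Cyr61 (RefSeq Ccn1) chr2:237225690-237225939 (- strand), that of Amotl2 chr8:112182376-112182625 (+ strand), that of Nppb chr5:163699758-163700007 (+ strand), that of Acta1 chr19:68784195-68784444 (- strand) and that of Acta2 chr1:241172504-241172753 (- strand). The Ctgf window held 3 copies of the core, whose first bases lie 166, 101 and 92 bases before the start. The other windows held 1 copy each, beginning at 113 bases in Cyr61, 76 in Amotl2, 131 in Nppb, 67 in Acta1 and 196 in Acta2.

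The libraries were alike in the number of genes detected but not in the FPKM sum or median. The number of genes at 1 FPKM or more ran from 10449 to 10565 over the 9 libraries and the FPKM sum from 572884 to 620119. The sum was 595605 to 620119 after Yap siRNA and 573430 to 585883 after control siRNA. The median FPKM of tested genes was 13.41 to 14.11 after Yap siRNA and 14.29 to 14.72 after control siRNA. Neither measure overlapped between these groups. FPKM values carry no read totals, so the depth behind each value is unknown and no counting interval is given. Libraries of 1 group correlated at 0.990 to 0.994 across genes and those of Yap and control siRNA with each other at 0.957 to 0.970 (Pearson, log2 scale), and genes are not independent replicates. The typical precision was a median SE of 0.106 on the log2 scale.

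Yap1, the targeted gene (gene ID 363014), had 5.90, 4.43 and 6.0 FPKM in the Yap siRNA libraries, against 55.3, 60.8 and 63.1 FPKM in the control libraries. The groups lay far apart, and 0.0911 of the control mean was left. Yap1 fell by 3.24 ± 0.11 (SE) on the log2 scale (limma, adjusted p = 1.7e-10), and it was also lower than in the Llgl1/2 siRNA libraries, with a log2 difference of -3.05 ± 0.11 (adjusted p = 3.8e-10). Values after ± are the SD over 3 libraries for FPKM means and the SE from the fit for log2 changes, and every adjusted p comes from limma. Nothing in the labels tells whether the libraries of a group came from separate cultures, and the p-values therefore cover only the spread between libraries, which may be technical.

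The classical YAP/TAZ target list showed mostly lower values after Yap siRNA: of 18 tested members 14 fell and 2 rose, with a median log2 change of -0.52, and 6 fell by 1 or more. The list names 22 genes, of which 4 were not analysed here and none was removed by the filter. Ctgf, a matricellular growth factor and the textbook readout of YAP activity, had 262, 229 and 274 FPKM in the Yap siRNA libraries, against 731, 756 and 585 FPKM in the control libraries. Cyr61, its close relative, had 106, 88.3 and 92.0 FPKM in the Yap siRNA libraries, against 230.4, 242 and 186 FPKM in the control libraries. Neither gene's groups overlapped, and the Yap siRNA means were 0.369 and 0.434 of the control means, with log2 changes of -1.43 ± 0.10 (adjusted p = 1.8e-07) and -1.19 ± 0.10 (adjusted p = 7.4e-07). The steepest fall of the list was in Tgfb2, a TGF-beta ligand, with 31.1, 28.2 and 29.9 FPKM in the Yap siRNA libraries, against 93.5, 107 and 88.4 FPKM in the control libraries, a log2 change of -1.66 ± 0.08 (adjusted p = 4.4e-09). F3, the tissue factor that starts coagulation, had 3.23, 3.99 and 4.21 FPKM after Yap siRNA and 9.34, 14.9 and 9.14 FPKM after control siRNA, and fell by 1.31 ± 0.16.

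Targets that act back on YAP or the cytoskeleton fell too. Amotl2, an angiomotin that binds YAP in the cytoplasm, had 56.6, 53.3 and 61.2 FPKM after Yap siRNA and 114, 117 and 116 FPKM after control siRNA, and Lats2, the kinase that phosphorylates YAP, had 16.1, 16.4 and 17.2 FPKM after Yap siRNA and 36.9, 38.6 and 36.3 FPKM after control siRNA. Both genes were tightly grouped within each treatment, and they fell by 1.01 ± 0.07 (adjusted p = 9.9e-08) and 1.12 ± 0.07 (adjusted p = 6.6e-08). Ptpn14, a phosphatase that holds YAP outside the nucleus, was at 3.44 ± 0.407 FPKM after Yap siRNA and 6.28 ± 0.833 FPKM after control siRNA. Nuak2, a kinase of the AMPK family, was at 4.81 ± 0.722 FPKM after Yap siRNA and 9.29 ± 1.33 FPKM after control siRNA, and the pair fell by 0.71 ± 0.14 and 0.82 ± 0.13. Smaller falls were called for Fjx1 (-0.57 ± 0.12), the receptor kinase gene Axl (-0.47 ± 0.12), Myof (-0.44 ± 0.09), Ccdc80 (-0.39 ± 0.10), Crim1 (-0.39 ± 0.08) and Ankrd1 (-0.27 ± 0.08, adjusted p = 0.014), a cardiac ankyrin repeat protein that was among the most abundant transcripts at 3390.0 ± 264 FPKM after Yap siRNA and 4075 ± 256 FPKM after control siRNA. Nt5e, the ectoenzyme that makes adenosine, went against the rest with 21.9, 31.7 and 22.9 FPKM in the Yap siRNA libraries, against 13.2, 16.8 and 14.6 FPKM in the control libraries, and rose by 0.73 ± 0.13 (adjusted p = 3.8e-04). Asap1 rose by 0.28 ± 0.10 (adjusted p = 0.027), with its lowest Yap siRNA library barely above its highest control library. Igfbp3 (-0.46 ± 0.23, adjusted p = 0.13) and Gadd45a (0.12 ± 0.08, adjusted p = 0.24) were not called and their groups overlapped. The call of Ankrd1 was lost without Yap siRNA replicate 1 or control siRNA replicate 3 (adjusted p = 0.052 to 0.057) and that of Asap1 without Yap siRNA replicate 2 or control siRNA replicate 1 or 3 (adjusted p = 0.079 to 0.11), whereas Igfbp3 passed without control siRNA replicate 3 (adjusted p = 0.035) and Gadd45a without Yap siRNA replicate 3 (adjusted p = 0.038). The core GGAATG was in 5 of the 14 target promoters with an entry (35.7%), those of Ctgf, Cyr61, Amotl2, Ptpn14 and Nuak2, against 10.5% of tested genes. This share was not particular to the targets. It was 36.0% (9 of 25) in the list of actin cytoskeleton and smooth muscle contractile genes. In the list of fetal and stress genes it was 37.5% (3 of 8), but that list also holds Ctgf, which is counted in both shares.

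**Figure D2:**
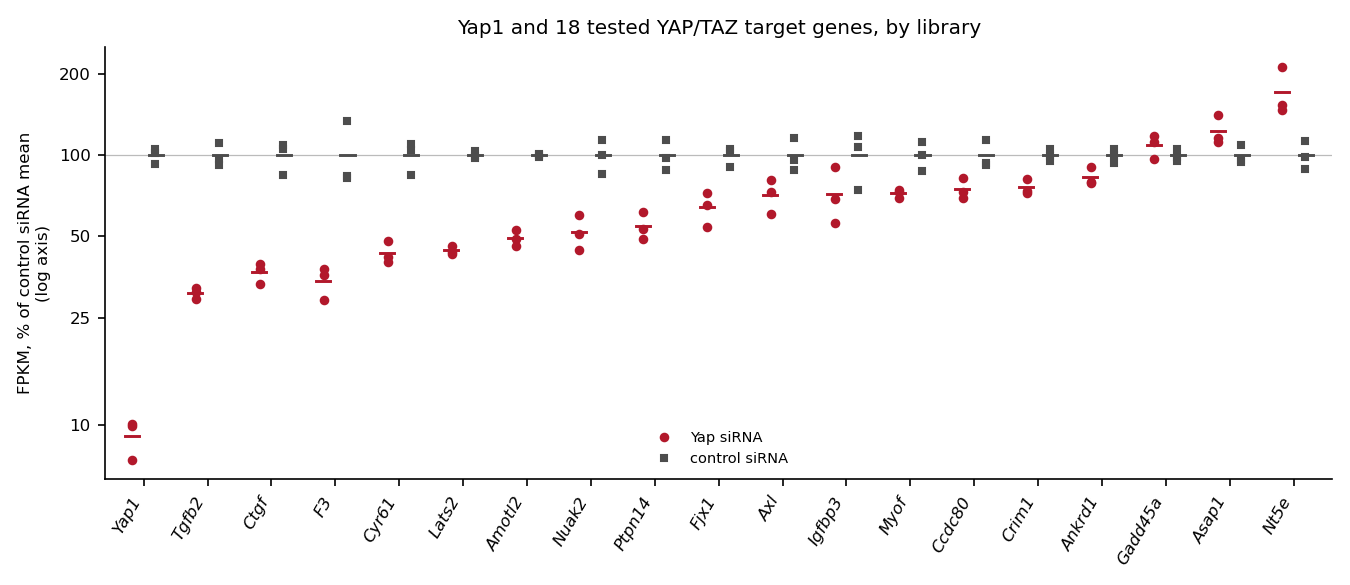
FPKM of Yap1 and the 18 tested YAP/TAZ targets in each library as a percentage of the gene's control siRNA mean (log axis), with Yap siRNA libraries as red circles left of the control libraries as grey squares and short bars at the group means. Yap1 lies near 10% and Tgfb2, Ctgf, F3, Cyr61, Lats2 and Amotl2 at or below about 50%, while Asap1 and Nt5e lie above the controls.

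The pathway's own components also differed. Of 26 tested Hippo genes 14 fell and 4 rose, with a median of -0.36. Of 33 listed, Fat4 and Vgll2 were below the filter and 5 were not analysed here. The coactivator TAZ gene Wwtr1 had 25.1, 25.1 and 28.5 FPKM in the Yap siRNA libraries, against 41.7, 38.9 and 40.3 FPKM in the control libraries, and fell by 0.60 ± 0.09 (adjusted p = 1.4e-04). Tead1, the most abundant of the 3 TEAD genes tested in the control libraries, had 16.1, 23.5 and 24.7 FPKM in the Yap siRNA libraries, against 31.1, 46.3 and 45.5 FPKM in the control libraries. Its spread was wide, with replicate 1 low in both groups, and it fell by 0.90 ± 0.20 (adjusted p = 0.0035). Tead3 rose by 0.35 ± 0.09 (adjusted p = 0.0038), Tead2 was at 0.05 ± 0.09 (adjusted p = 0.67) and the TEAD cofactor gene Vgll4 at -0.24 ± 0.10 (adjusted p = 0.061).

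Among the kinases and their adaptors, the MST kinases split: Stk4 fell by 0.41 ± 0.10 (adjusted p = 0.0031) and Stk3 was at -0.03 ± 0.10 (adjusted p = 0.82). Besides Lats2, Lats1 fell by 0.32 ± 0.11, the LATS activators Mob1a and Mob1b by 0.73 ± 0.09 and 0.78 ± 0.13, Taok1 by 0.37 ± 0.11 and the NDR kinase gene Stk38l by 0.87 ± 0.08. Its paralogue Stk38 rose by 0.35 ± 0.12 and the upstream kinase gene Map4k4 by 0.23 ± 0.07. Upstream, Ajuba, a LIM protein that inhibits LATS, had 16.6, 13.0 and 17.1 FPKM after Yap siRNA and 35.2, 34.9 and 33.0 FPKM after control siRNA and fell by 1.10 ± 0.10. Wwc2 fell by 0.80 ± 0.09, Frmd6 by 0.55 ± 0.09 and Rassf1 by 0.49 ± 0.10, whereas Nf2, which encodes merlin, rose by 0.37 ± 0.08. Sav1, Taok2, Taok3, Dchs1 and Limd1 were not called, with log2 changes of -0.19, 0.14, 0.36, -0.35 and 0.08. All calls in this list had adjusted p-values of at most 0.032, the value of Stk38. Several were weak: the call of Lats1 was lost without Yap siRNA replicate 1 or 2 or control siRNA replicate 1 or 2 (adjusted p = 0.05 to 0.12), that of Stk38 without Yap siRNA replicate 3 or control siRNA replicate 2 (adjusted p = 0.11 to 0.17), that of Map4k4 without control siRNA replicate 3 (adjusted p = 0.06) and that of Taok1 without Yap siRNA replicate 1 (adjusted p = 0.07). In contrast Sav1 passed without Yap siRNA replicate 1 or 2 (adjusted p = 0.042 to 0.048), Taok3 without control siRNA replicate 2 (adjusted p = 0.016), Dchs1 without Yap siRNA replicate 3 (adjusted p = 0.046) and Vgll4 without Yap siRNA replicate 3 (adjusted p = 0.025). The promoter core occurred in 7 of the 20 Hippo genes with an entry (35.0%).

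Cell cycle genes were lower in each of the phases listed, with CDK inhibitors divided. Of 81 tested, 68 fell and 3 rose, with a median of -0.65, against 27.5% lower among all tested genes. In G1, 11 of 15 fell and none rose. Ccnd1, the cyclin D1 gene that drives entry into the cycle, had 31.5, 28.9 and 29.9 FPKM in the Yap siRNA libraries, against 72.4, 70.6 and 62.7 FPKM in the control libraries, and E2f1, the transcription factor that opens S phase, had 4.57, 3.94 and 4.13 FPKM in the Yap siRNA libraries, against 11.1, 10.9 and 11 FPKM in the control libraries. In neither gene did the groups overlap, and they fell by 1.16 ± 0.09 (adjusted p = 2.0e-07) and 1.2 ± 0.10 (adjusted p = 9.6e-07). Skp2 and Cdk6 fell by 1.12 ± 0.14 and 1.05 ± 0.12, whereas Cdk4 (0.07 ± 0.10), Myc (-0.10 ± 0.09), Rb1 (0.18 ± 0.10) and Cdc25a (0.00 ± 0.09) were not called.

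In replication, 22 of 25 genes fell. Rrm2, the regulated subunit of ribonucleotide reductase, had 41.9, 32.5 and 34.2 FPKM in the Yap siRNA libraries, against 115, 107 and 99.5 FPKM in the control libraries, a log2 change of -1.55 ± 0.09 (adjusted p = 3.8e-08). The replicative helicase genes Mcm5 and Mcm6 fell by 1.23 ± 0.11 and 1.22 ± 0.08, and the polymerase gene Pole by 1.04 ± 0.12. The exception was Gins2, a helicase cofactor, which rose by 0.52 ± 0.08 (adjusted p = 1.7e-04), and Fen1 and Lig1 were not called. Fen1 passed as lower without Yap siRNA replicate 1 or 2 (adjusted p = 0.038 to 0.049) and Lig1 without Yap siRNA replicate 2 (adjusted p = 0.016). In mitosis 23 of 25 fell. Cdk1, the mitotic kinase, had 33.6, 31.3 and 34.4 FPKM in the Yap siRNA libraries, against 75.5, 73.0 and 68.7 FPKM in the control libraries, a log2 change of -1.11 ± 0.08 (adjusted p = 1.4e-07), and Aurkb, Ube2c and Kif11 fell by 0.82 ± 0.11, 0.95 ± 0.18 and 0.95 ± 0.11. All 9 tested cytokinesis genes fell. The steepest among these was Ect2, the exchange factor that activates RhoA at the cleavage site, with 5.64, 4.68 and 5.02 FPKM after Yap siRNA and 14.9, 15.2 and 13.1 FPKM after control siRNA. CDK inhibitors, which brake the cycle, went both ways. Cdkn1c, which encodes p57, had 7.02, 6.79 and 7.24 FPKM in the Yap siRNA libraries, against 2.07, 2.21 and 2.18 FPKM in the control libraries. Its Yap siRNA libraries all stood above the control libraries, and it rose by 1.35 ± 0.14 (adjusted p = 4.8e-06). Cdkn2a, Cdkn2c and Cdkn2d fell by 0.70 ± 0.17, 0.78 ± 0.14 and 0.48 ± 0.14, with the call of Cdkn2d lost without Yap siRNA replicate 2 or control siRNA replicate 1 (adjusted p = 0.056 to 0.063). Cdkn1a, the p53-induced p21 gene, was at 0.11 ± 0.08 (adjusted p = 0.28) and passed without Yap siRNA replicate 2 (adjusted p = 0.026). Only 3 of the 63 cell cycle genes with a promoter entry held the core (4.76%). These are bulk libraries, so fewer cells of a type and less RNA per cell cannot be told apart, here and in all later results.

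Genes of the actin cytoskeleton, many of them known targets of SRF and its coactivator MRTF, were lower. Of 20 tested genes of the general actin cytoskeleton 13 fell and none rose, with a median of -0.63. The cytoplasmic actin gene Actb was at 886 ± 138 FPKM after Yap siRNA and 1399.8 ± 179 FPKM after control siRNA. Its sister gene Actg1 was at 596 ± 90.0 FPKM after Yap siRNA and 1036 ± 143 FPKM after control siRNA, and they fell by 0.66 ± 0.12 and 0.80 ± 0.12. Fhl1, a LIM protein of the sarcomere and of hypertrophic signalling, had 165, 132 and 172 FPKM in the Yap siRNA libraries, against 602, 652 and 574 FPKM in the control libraries. It fell by 1.96 ± 0.11 (adjusted p = 1.2e-08), the steepest of this group. Vcl, Zyx, Actn1, Actn4 and Myh9, which link or contract actin filaments, fell by 0.78 ± 0.07, 0.69 ± 0.07, 0.75 ± 0.07, 0.96 ± 0.06 and 0.83 ± 0.21. Srf itself was at -0.11 ± 0.08 (adjusted p = 0.27). Of 12 integrin and focal adhesion genes 10 fell and none rose. Itgb1, the beta subunit shared by most matrix receptors, had 337, 349 and 368 FPKM after Yap siRNA and 763, 777 and 737 FPKM after control siRNA, and fell by 1.11 ± 0.07 (adjusted p = 3.0e-08), and Parva and Itgb5 fell by 0.96 ± 0.07 and 0.83 ± 0.09.

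Matrix genes were divided. Thbs1 and Fn1, secreted matrix proteins long known to respond to serum and TGF-beta, fell by 1.08 ± 0.09 and 0.74 ± 0.08 (adjusted p of at most 3.8e-06). The lysyl oxidase gene Lox fell by 0.83 ± 0.19. Sparc and Col6a2 rose by 0.54 ± 0.07 and 0.52 ± 0.07, and the fibrillar collagen genes Col1a1, Col1a2 and Col3a1 were not called, at -0.04 ± 0.14, -0.26 ± 0.14 and 0.10 ± 0.17, although Col1a2 passed without control siRNA replicate 3 (adjusted p = 0.015). In total 6 of 17 structural (35.3%) and 6 of 12 remodelling genes (50%) fell, against 27.5% of all tested genes. The rises were 3 (17.6%) and 1 (8.33%), against 20.5%.

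The smooth muscle contractile genes split inside their own list. Acta2, smooth muscle actin, had 453, 402 and 425 FPKM in the Yap siRNA libraries, against 2361, 2249 and 2449 FPKM in the control libraries. It was among the 12 steepest falls under the naming rule, at -2.46 ± 0.08 (adjusted p = 1.7e-10). Tagln, the actin-bundling transgelin, had 277, 235 and 309 FPKM in the Yap siRNA libraries, against 673, 666 and 581 FPKM in the control libraries, a log2 change of -1.23 ± 0.12 (adjusted p = 3.0e-06). In contrast Myh11, the smooth muscle myosin heavy chain that defines the mature cell type, was at 3.79 ± 0.146 FPKM after Yap siRNA and 2.43 ± 0.170 FPKM after control siRNA, and rose by 0.48 ± 0.13 (adjusted p = 0.0066). Mylk, Actg2 and Lmod1 rose by 0.58 ± 0.13, 0.78 ± 0.14 and 0.41 ± 0.12, and Cnn1 and Cald1 fell by 0.30 ± 0.09 and 0.46 ± 0.09. Summed smooth muscle and pericyte markers, which include Acta2 and Tagln, were 1546.1 to 1623.2 FPKM after Yap siRNA and 3796.5 to 3902.6 FPKM after control siRNA. Without Acta2 and Tagln, a split chosen after their values were seen, the other 11 summed to 861.8 to 909.2 FPKM after Yap siRNA and 841.9 to 882.1 FPKM after control siRNA, which overlap. Most of that sum is Des, desmin, which cardiac myocytes also express in abundance. Without it, the 10 markers left summed to 151.6 to 173.9 FPKM after Yap siRNA and 188.3 to 205.6 FPKM after control siRNA, without overlap. Singly the markers were divided: of all 13, 6 rose (46.2%) and 5 fell (38.5%), with Acta2 and Tagln among the falls. Among all tested genes 20.5% rose and 27.5% fell. The pericyte receptor gene Pdgfrb rose by 0.43 ± 0.11, and Mcam and Cspg4 fell by 0.51 ± 0.09 and 0.41 ± 0.10. The actin genes share long stretches of near-identical coding sequence. The counting method is not given in the sources used here, so the division of reads among Acta1, Acta2, Actc1 and Actg2 is uncertain, as it is between Myh6 and Myh7.

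Sarcomere genes went in both directions. The 13 measured markers of working cardiomyocytes, most of them sarcomere genes, summed to 39838.0 to 42734.4 FPKM after Yap siRNA and 32180.2 to 36589.6 FPKM after control siRNA, far above the marker lists of other cell types and as the label of the cells has it. Of 37 tested, 18 rose and 11 fell (20.5% and 27.5% among all tested genes), with a median of 0.18. In the thick filament 9 of 10 rose. Myh6, the fast alpha myosin heavy chain of the adult rodent ventricle, had 4765, 6102 and 5676 FPKM in the Yap siRNA libraries, against 2195, 2276 and 2822 FPKM in the control libraries. Myh7, the slow beta chain of the fetal and stressed rodent ventricle, had 814, 947 and 854 FPKM in the Yap siRNA libraries, against 2079.5, 2353 and 2484 FPKM in the control libraries. The 2 genes moved in opposite directions without overlap, Myh6 by 1.18 ± 0.11 (adjusted p = 2.0e-06) and Myh7 by -1.40 ± 0.09 (adjusted p = 6.4e-08). Their ratio within a library was 5.85, 6.44 and 6.65 in the Yap siRNA libraries, against 1.06, 0.967 and 1.14 in the control libraries.

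The atrial light chain genes had larger log2 changes than the ventricular ones. Myl7, the atrial regulatory light chain, had 229, 270.0 and 357 FPKM in the Yap siRNA libraries, against 59.3, 63.8 and 81.7 FPKM in the control libraries, and rose by 2.04 ± 0.14 (adjusted p = 4.2e-07). Myl2, its ventricular counterpart, was at 5756 ± 165 FPKM after Yap siRNA and 3894 ± 506 FPKM after control siRNA and rose by 0.57 ± 0.10. The Myl2 to Myl7 ratio was 24.5, 21.2 and 16.6 in the Yap siRNA libraries, against 61.5, 55.8 and 54.8 in the control libraries. For the essential light chains the ventricular to atrial ratio of Myl3 to Myl4 was 21.5, 20.9 and 16.5 in the Yap siRNA libraries, against 26.1, 26.1 and 23.4 in the control libraries with no overlap. Mybpc3, Myom1 and Myom2, which bind and space the thick filaments, rose by 0.39 ± 0.09, 0.50 ± 0.08 and 1.17 ± 0.10.

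In the thin filament, the troponin genes Tnnt2, Tnni3 and Tnni1 rose by 0.73 ± 0.09, 1.22 ± 0.10 and 0.85 ± 0.07, and Tnnc1 was level at -0.01 ± 0.07 (adjusted p = 0.9). Tnni3, the adult cardiac troponin I, had 4149, 4715 and 3483 FPKM in the Yap siRNA libraries, against 1734, 1695 and 1852 FPKM in the control libraries. Its ratio to the fetal form Tnni1 was 5.23, 6.01 and 4.20 in the Yap siRNA libraries, against 4.05, 4.05 and 3.81 in the control libraries, and Yap siRNA library 3 stood nearest the controls. Both striated actin genes fell. Acta1, the skeletal form expressed in the fetal and stressed rodent heart, had 133, 114 and 147 FPKM in the Yap siRNA libraries, against 510.5, 545 and 549 FPKM in the control libraries, and fell by 2.02 ± 0.11 (adjusted p = 1.1e-08). Actc1, the cardiac form, had 5339.6, 4753 and 5949 FPKM in the Yap siRNA libraries, against 7705, 8017 and 8451 FPKM in the control libraries, and fell by 0.60 ± 0.10 (adjusted p = 2.2e-04). The Actc1 to Acta1 ratio was 40.1, 41.8 and 40.3 in the Yap siRNA libraries, against 15.1, 14.7 and 15.4 in the control libraries. At the Z-disc 7 of 15 fell, among them Pdlim5 (-0.88 ± 0.08), Flnc (-0.64 ± 0.10) and Csrp3 (-0.60 ± 0.10). Tcap, the titin cap gene, had 197, 211 and 210.4 FPKM in the Yap siRNA libraries, against 66.0, 67.3 and 78.8 FPKM in the control libraries, and rose by 1.53 ± 0.10 (adjusted p = 9.9e-08). Lrrc10, a heart-restricted leucine-rich repeat gene, had 119, 109.8 and 124 FPKM after Yap siRNA and 20.4, 18.2 and 18.3 FPKM after control siRNA. It rose by 2.57 ± 0.07 (adjusted p = 8.5e-11), and Xirp2 rose by 0.98 ± 0.17.

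The natriuretic peptide genes, which mark fetal and stressed myocytes, were both lower but by different amounts. Nppb, the B-type peptide, had 1215, 1008 and 1113 FPKM in the Yap siRNA libraries, against 2908, 2759 and 2847 FPKM in the control libraries. All Yap siRNA libraries stood far below the control libraries, and it fell by 1.35 ± 0.10 (adjusted p = 1.9e-07). Nppa, the A-type peptide and the most abundant transcript of this list, had 7482, 7585 and 7332 FPKM in the Yap siRNA libraries, against 9650.2, 9151 and 9683 FPKM in the control libraries, and fell by 0.35 ± 0.09 (adjusted p = 0.005). Of the 11 fetal and stress genes 7 fell and 3 rose. Those that rose were Tnni1, the pacemaker channel gene Hcn4 (0.59 ± 0.13) and the T-type calcium channel gene Cacna1g (1.46 ± 0.10). The promoter core occurred in 7 of 29 sarcomere genes with an entry (24.1%). It was present where genes rose as well as where they fell: of those 7, Tnnt2, Tpm1, Myl3 and Myh6 rose, Acta1 and Flnc fell, and Mypn (0.09 ± 0.11) was not called.

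**Figure D3:**
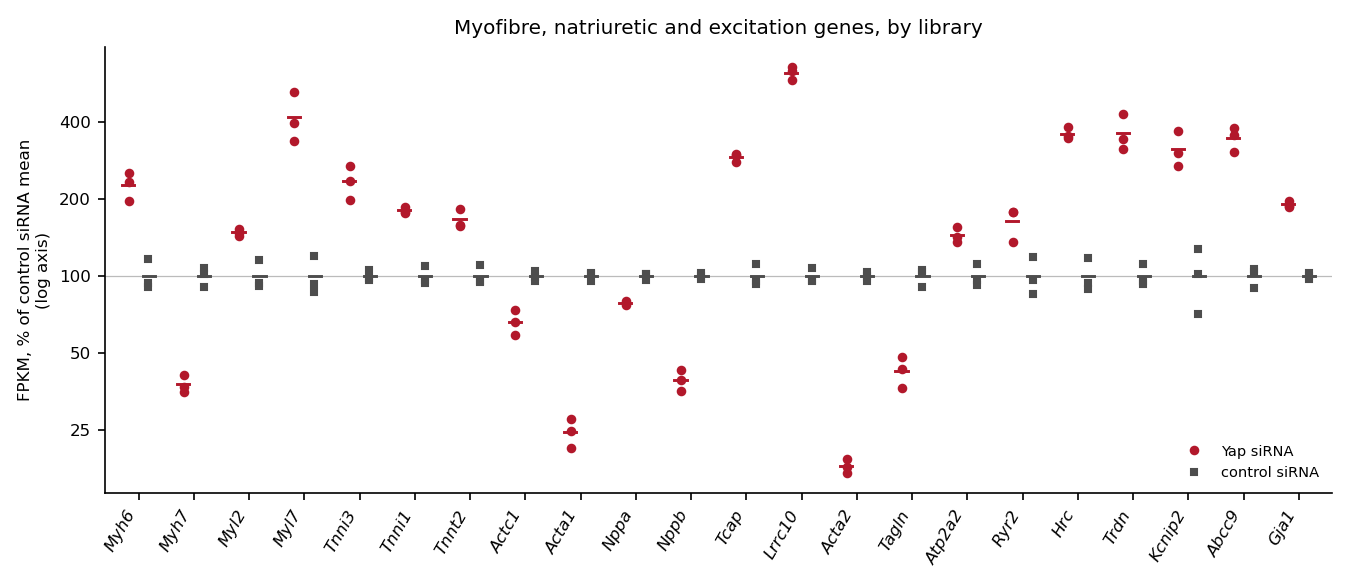
FPKM of myofibre, natriuretic and excitation genes in each library as a percentage of the gene's control siRNA mean (log axis), with Yap siRNA as red circles left of control siRNA as grey squares and short bars at the means. Myh6, Myl7, Tcap, Lrrc10 and the calcium cycling and channel genes on the right lie above their controls, and Myh7, Actc1, Acta1, Nppa, Nppb, Acta2 and Tagln lie below.

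Within-library ratios of muscle or adult isoforms to general or fetal ones were set side by side for 17 gene pairs, since FPKM is scaled by length. The ratio lay above every control library in 13 pairs, below in 3 and overlapped in 1, and no test was run on the ratios. For single genes, the Yap siRNA libraries lay wholly above the controls in 23.3% of tested genes and wholly below in 31.6%. No such share was computed for ratios, which are another quantity. The muscle member rose in 13 pairs and fell in 2, and the general member rose in 6 and fell in 5. The enolase pair Eno3 to Eno1 had ratios of 0.0463, 0.0630 and 0.0413 in the Yap siRNA libraries, against 0.0132, 0.0127 and 0.0141 in the control libraries, with Eno3 at 1.12 ± 0.10 and Eno1 at -0.70 ± 0.08 on the log2 scale. The creatine kinase pair Ckm to Ckb had ratios of 5.07, 5.57 and 5.53 in the Yap siRNA libraries, against 1.75, 1.85 and 2.28 in the control libraries. Ckm, the muscle form that buffers ATP at the myofibril, rose by 1.46 ± 0.10 (adjusted p = 1.4e-07) and Ckb was at 0.00 ± 0.08. The ratio of Pfkm to Pfkp was 0.788, 0.786 and 0.837 in the Yap siRNA libraries, against 0.464, 0.405 and 0.498 in the control libraries. The hexokinases went the other way: the insulin-responsive form Hk2 fell by 0.74 ± 0.09 and Hk1 rose by 0.23 ± 0.07, a call lost without control siRNA replicate 1 (adjusted p = 0.078). Their ratio was 0.0381, 0.0399 and 0.0412 in the Yap siRNA libraries, against 0.0882, 0.0822 and 0.0756 in the control libraries. The glucose transporter pair Slc2a4 to Slc2a1 overlapped between the groups, at 0.335, 0.378 and 0.420 in the Yap siRNA libraries, against 0.385, 0.303 and 0.529 in the control libraries.

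**Figure D4:**
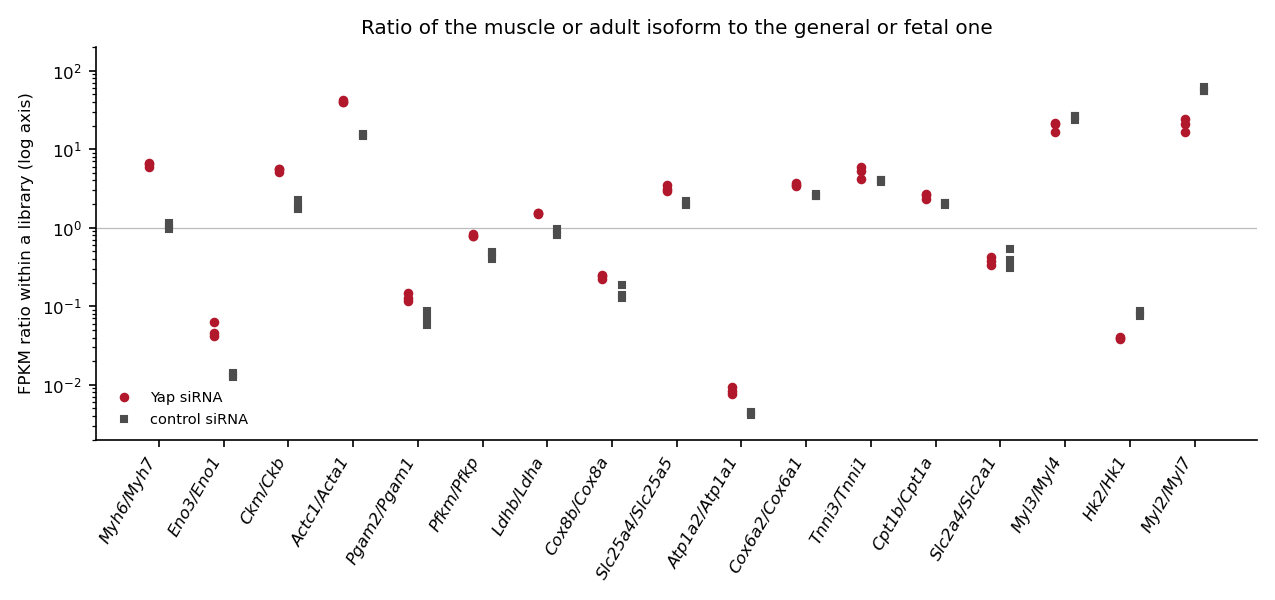
FPKM ratio of the muscle or adult isoform to the general or fetal isoform within each library (log axis) for 17 pairs, ordered from the pair most raised to the pair most lowered, with Yap siRNA as red circles left of control siRNA as grey squares. The Yap siRNA libraries lie above all control libraries in 13 pairs, with Myh6 over Myh7 at the left, and below them for Myl3 over Myl4, Hk2 over Hk1 and Myl2 over Myl7 at the right.

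Genes of calcium cycling and electrical excitation were mostly higher: of 50 tested 29 rose and 7 fell, with a median of 0.52, and 10 rose by 1 or more. In the sarcoplasmic reticulum, the store that releases calcium at each beat, Hrc, a calcium-buffering protein, had 128, 142 and 131 FPKM in the Yap siRNA libraries, against 34.8, 33.1 and 43.5 FPKM in the control libraries. Trdn, triadin, which anchors the release complex, had 58.4, 73.5 and 53.4 FPKM in the Yap siRNA libraries, against 16.4, 15.9 and 19.0 FPKM in the control libraries. Both groups were well separated, and the genes rose by 1.83 ± 0.10 (adjusted p = 1.8e-08) and 1.78 ± 0.12 (adjusted p = 1.4e-07). The release channel gene Ryr2 rose by 0.70 ± 0.13, the pump gene Atp2a2 by 0.53 ± 0.09, and its inhibitor gene Pln by 0.57 ± 0.08. Casq1, the skeletal calsequestrin, fell by 0.37 ± 0.10, and Jph2, Fkbp1b and Camk2d were not called.

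At the cell membrane, 5 of 11 tested calcium and sodium genes rose, 1 fell and 5 were not called, with a median of 0.14. The T-type calcium channel genes Cacna1g and Cacna1h rose by 1.46 ± 0.10 and 1.01 ± 0.12. The exchanger gene Slc8a1 was not called, at -0.07 ± 0.08. Of 17 potassium and pacemaker channel genes 12 rose and 2 fell. Kcnip2, the subunit that tunes the transient outward current, had 26.6, 23.6 and 32.5 FPKM in the Yap siRNA libraries, against 8.97, 6.26 and 11.2 FPKM in the control libraries. Abcc9, the regulatory subunit of the cardiac ATP-sensitive channel, had 21.2, 24.8 and 26.4 FPKM in the Yap siRNA libraries, against 6.27, 7.47 and 7.27 FPKM in the control libraries. They rose by 1.56 ± 0.18 and 1.65 ± 0.11, with Kcnip2 more scattered among its control libraries. Kcnk3 and Kcnh2 rose by 1.57 ± 0.14 and 1.16 ± 0.10, and the pacemaker channel genes Hcn2 and Hcn4 by 0.51 ± 0.12 and 0.59 ± 0.13. Abcc8 fell by 0.37 ± 0.11. The connexin genes Gja1, Gja5 and Gjc1, which couple neighbouring cells, all rose, by 0.92 ± 0.07, 0.74 ± 0.13 and 0.74 ± 0.08. Among receptors, Adra1b rose by 1.47 ± 0.13 and Chrm2 by 0.79 ± 0.13. Of the 9 tested junction and receptor genes 5 rose, 1 fell and 3 were not called.

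Fatty acid oxidation genes were higher, 28 of 41 against 2 lower, with a median of 0.41. Acsl1, which activates fatty acids to acyl-CoA, had 89.8, 102 and 109.8 FPKM in the Yap siRNA libraries, against 38.1, 34.8 and 41.2 FPKM in the control libraries. Hadh, a beta-oxidation dehydrogenase, had 95.7, 83.9 and 109 FPKM in the Yap siRNA libraries, against 38.5, 31.4 and 44.4 FPKM in the control libraries. Every Yap siRNA library stood above every control library in both genes, and Acsl1 rose by 1.38 ± 0.11 (adjusted p = 4.5e-07) and Hadh by 1.32 ± 0.12 (adjusted p = 2.1e-06). Etfdh, which passes electrons from beta-oxidation to the respiratory chain, rose by 1.06 ± 0.09, and the carnitine shuttle genes Cpt1a, Cpt1b, Cpt2 and Slc25a20 rose by 0.46 ± 0.09, 0.78 ± 0.08, 0.54 ± 0.10 and 0.64 ± 0.08. Among regulators, the nuclear receptor genes Esrrg and Rxra rose by 0.82 ± 0.11 and 0.57 ± 0.12. Pdk4 and Pdk2, kinases that shut off pyruvate dehydrogenase, rose by 0.67 ± 0.12 and 0.67 ± 0.10, and Ucp2 rose by 1.12 ± 0.11. Ppara and Ppargc1a were not called, at -0.25 ± 0.13 (adjusted p = 0.13) and 0.32 ± 0.15 (adjusted p = 0.1), and Ppargc1a passed without Yap siRNA replicate 1 or control siRNA replicate 3 (adjusted p = 0.01 to 0.036). The members that fell were Lpl (-0.29 ± 0.08) and Angptl4, the lipase inhibitor, with 21.9, 18.3 and 17.1 FPKM after Yap siRNA and 43.3, 41.9 and 31.7 FPKM after control siRNA.

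Respiratory chain genes rose in part. Of 48 tested 20 rose and 1 fell, with a median of 0.17. The steepest rises were in the small subunit genes Cox8b, Ndufb3 and Ndufa4, by 1.2 ± 0.16, 1.10 ± 0.11 and 0.73 ± 0.09, and Ndufs1, Uqcrc2 and Cox4i1, subunits of complexes I, III and IV, were not called, at 0.06 ± 0.07, -0.04 ± 0.07 and 0.00 ± 0.08. Among 18 citric acid cycle genes 6 rose and 3 fell, including the pyruvate dehydrogenase subunit gene Pdha1, which fell by 0.66 ± 0.07 (adjusted p = 6.9e-06). Of 25 glycolysis genes 7 were higher (28%) and 8 lower (32%), near the 20.5% and 27.5% of all tested genes. Pfkfb3, which makes the activator of phosphofructokinase, fell by 1.03 ± 0.10 and Eno1 by 0.70 ± 0.08. Aldoc and Ldhb rose by 1.34 ± 0.09 and 0.70 ± 0.08.

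Sterol synthesis genes had no called rise: 21 of 27 fell, with a median of -0.69. Idi1, an early isoprenoid isomerase, had 13.2, 12.8 and 13.6 FPKM in the Yap siRNA libraries, against 31.6, 31.5 and 27.5 FPKM in the control libraries. It fell by 1.13 ± 0.09 (adjusted p = 3.3e-07) with no overlap of groups. Of the SREBP genes that control the pathway Srebf2 fell by 0.42 ± 0.11 and Srebf1 was at -0.26 ± 0.11 (adjusted p = 0.058), passing without Yap siRNA replicate 3 (adjusted p = 0.027). None of the 20 sterol genes with a promoter entry held the TEAD core.

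Amino acid supply genes fell in 12 of 15 cases. Slc1a4, a neutral amino acid exchanger, had 5.51, 4.27 and 6.75 FPKM after Yap siRNA and 15.4, 15.5 and 14.6 FPKM after control siRNA, Asns, asparagine synthetase, had 32.7, 27.3 and 30.8 FPKM after Yap siRNA and 64.0, 64.7 and 57.0 FPKM after control siRNA, and Mthfd2, of mitochondrial folate metabolism, fell by 1.09 ± 0.09. The exception was the transporter gene Slc38a2, which rose by 0.28 ± 0.08 (adjusted p = 0.0071). Several of these are known targets of ATF4, whose own transcript fell by 0.25 ± 0.07 (adjusted p = 0.011), and Chac1 and Sesn2 fell by 0.56 ± 0.12 and 0.51 ± 0.13. Among proteins that fold others in the endoplasmic reticulum, the chaperone genes Hspa5, Calr and Hyou1 rose by 0.42 ± 0.07, 0.59 ± 0.07 and 0.60 ± 0.07, and Pdia4, a protein disulfide isomerase gene, fell by 0.40 ± 0.07 (adjusted p = 3.0e-04). The unfolded protein and integrated stress list stood at 7 higher and 7 lower of 19. Ribosome biogenesis genes had 2 higher and 7 lower of 18, with Polr1b at -0.59 ± 0.11 and Ncl at 0.32 ± 0.09.

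Antioxidant genes had 7 higher and 7 lower of 20, with Sod1 at 0.61 ± 0.08 and Sod2, the mitochondrial form, at -0.61 ± 0.09. Of 16 p53 targets 4 rose (25%), led by Tp53inp1 (0.84 ± 0.14), and 3 fell (18.8%), led by Plk3 (-1.13 ± 0.16). Among all tested genes 20.5% rose and 27.5% fell. Apoptosis regulators fell in 8 of 19 cases, including both the protective Bcl2l1 (-0.70 ± 0.09) and the death receptor gene Tnfrsf10b (-0.84 ± 0.12). The called rises were Bmf (1.16 ± 0.16) and Bnip3 (0.40 ± 0.08). Lysosome and autophagy genes had 9 higher and 1 lower of 19. Ulk1, the kinase that starts autophagy, had 22.6, 19.1 and 25.4 FPKM after Yap siRNA and 7.91, 8.98 and 12.2 FPKM after control siRNA and rose by 1.14 ± 0.14.

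NF-kB-responsive genes were lower in 19 of 23 cases and higher in none, with a median of -0.72. Cxcl10, a T cell chemokine, had 203, 167 and 147 FPKM in the Yap siRNA libraries, against 440.2, 446 and 400.2 FPKM in the control libraries. Ccl2, the main monocyte chemokine, had 1017, 925 and 746 FPKM in the Yap siRNA libraries, against 1556, 1536 and 1178 FPKM in the control libraries, and Csf2, a myeloid growth factor, 13.8, 12.1 and 12 FPKM after Yap siRNA and 31.1, 28.1 and 23.1 FPKM after control siRNA. All of these groups stood apart, with log2 changes of -1.32 ± 0.12 (adjusted p = 1.0e-06), -0.67 ± 0.12 (adjusted p = 6.6e-04) and -1.05 ± 0.15 (adjusted p = 7.1e-05). The genes not called were Cxcl6 (0.46 ± 0.22), Il6 (0.15 ± 0.22), Il1b (-0.12 ± 0.14) and Sele (-0.18 ± 0.17), of which Cxcl6 passed as higher without control siRNA replicate 2 (adjusted p = 0.011). Summed endothelial markers were also lower, at 456.6 to 534.4 FPKM after Yap siRNA and 625.4 to 742.6 FPKM after control siRNA, and 7 of 14 fell while Kdr rose. Among them Eng was at -0.78 ± 0.10, Pecam1 at -0.57 ± 0.10 and Cdh5 at -0.36 ± 0.09. Leukocyte markers overlapped, at 228.5 to 307.9 FPKM after Yap siRNA and 217.9 to 287.8 FPKM after control siRNA, with the T cell marker Cd3e at 0 in all 6 libraries, the macrophage gene Cd68 at 0.55 ± 0.15 and the monocyte receptor gene Cd14 at -0.72 ± 0.15. The part of either cell type in the inflammatory genes was not tested. Interferon-stimulated genes were lower in 16 of 25, with Oasl at -1.08 ± 0.11 and Mx1 at -1.04 ± 0.17, while Isg15 was not called. The acute-phase list was divided. Hamp, the iron hormone hepcidin, had 305, 283 and 285 FPKM in the Yap siRNA libraries, against 47.5, 57.2 and 83.2 FPKM in the control libraries. Reg3b, a secreted lectin, had 145, 198 and 162 FPKM in the Yap siRNA libraries, against 21.8, 17.9 and 22.1 FPKM in the control libraries. They rose by 2.23 ± 0.15 (adjusted p = 3.7e-07) and 2.96 ± 0.13 (adjusted p = 3.5e-09), as did the secreted phospholipase gene Pla2g2a, by 2.54 ± 0.11, whereas Lcn2, lipocalin 2, had 212, 159 and 183 FPKM after Yap siRNA and 447, 407 and 355 FPKM after control siRNA and fell by 1.12 ± 0.14.

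Growth factor signalling changed at single ligands and receptors. Igfbp5, an insulin-like growth factor binding protein, had 31.2, 39.4 and 39.4 FPKM in the Yap siRNA libraries, against 0.540, 1.63 and 1.89 FPKM in the control libraries. It was near the filter in the control libraries and rose by 4.04 ± 0.34 (adjusted p = 1.9e-05), while the receptor genes Igf1r and Igf2r fell by 0.79 ± 0.12 and 0.83 ± 0.08. Fgfr2, a fibroblast growth factor receptor, had 1.59, 1.49 and 1.18 FPKM in the Yap siRNA libraries, against 12, 10.8 and 10.3 FPKM in the control libraries. It fell by 2.32 ± 0.12 (adjusted p = 1.1e-08) and Fgfr1 by 0.77 ± 0.07, and the ligand genes Fgf1 and Fgf9 rose by 1.01 ± 0.15 and 1.15 ± 0.15. The epidermal growth factor family ligand genes Hbegf, Areg and Tgfa fell by 1.24 ± 0.13, 0.90 ± 0.26 and 0.84 ± 0.12. Vegfa, the main angiogenic ligand, rose by 0.84 ± 0.06 (adjusted p = 1.9e-07). In the TGF-beta family Tgfb3 had 20.9, 17.0 and 24.7 FPKM after Yap siRNA and 80.5, 79.4 and 78.6 FPKM after control siRNA and fell by 1.90 ± 0.11, Tgfb1 was at -0.07 ± 0.09 and the coreceptor gene Tgfbr3 rose by 0.77 ± 0.12. Wnt genes went both ways, Lef1 and Dkk3 up by 1.3 ± 0.19 and 1.16 ± 0.08 and the receptor gene Fzd2 down by 1.46 ± 0.10. Of 21 immediate early genes 8 fell and 2 rose, with Maff at -0.87 ± 0.11 and Dusp5 at 0.79 ± 0.09.

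Of 23 genes for transcription factors of the heart, 8 rose and 4 fell. Irx3, an Iroquois factor of the ventricular conduction system, had 73.6, 84.3 and 77.7 FPKM in the Yap siRNA libraries, against 21.5, 22.4 and 22.1 FPKM in the control libraries. Hopx, a homeodomain-only cofactor, had 13.9, 13.1 and 14.3 FPKM in the Yap siRNA libraries, against 3.66, 3.47 and 4.49 FPKM in the control libraries. Neither overlapped between groups, and they rose by 1.79 ± 0.08 (adjusted p = 3.8e-09) and 1.60 ± 0.17 (adjusted p = 6.8e-06). Mef2d, Tbx5, Irx5 and Irx4 rose by 0.95 ± 0.10, 0.85 ± 0.12, 0.80 ± 0.13 and 0.72 ± 0.11, and Hand2 by 0.55 ± 0.07. Gata4 fell by 0.30 ± 0.09 (adjusted p = 0.011), and the core factor genes Nkx2-5, Gata6 and Mef2a were not called, at 0.22 ± 0.10, 0.08 ± 0.07 and 0.06 ± 0.10, with Nkx2-5 passing without Yap siRNA replicate 2 (adjusted p = 0.0017). In the dystrophin complex Sspn and Sgca rose by 1.04 ± 0.09 and 0.76 ± 0.11, Sntb1 fell by 1.06 ± 0.12 and Dmd was at 0.21 ± 0.10 (adjusted p = 0.11).

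**Figure D5:**
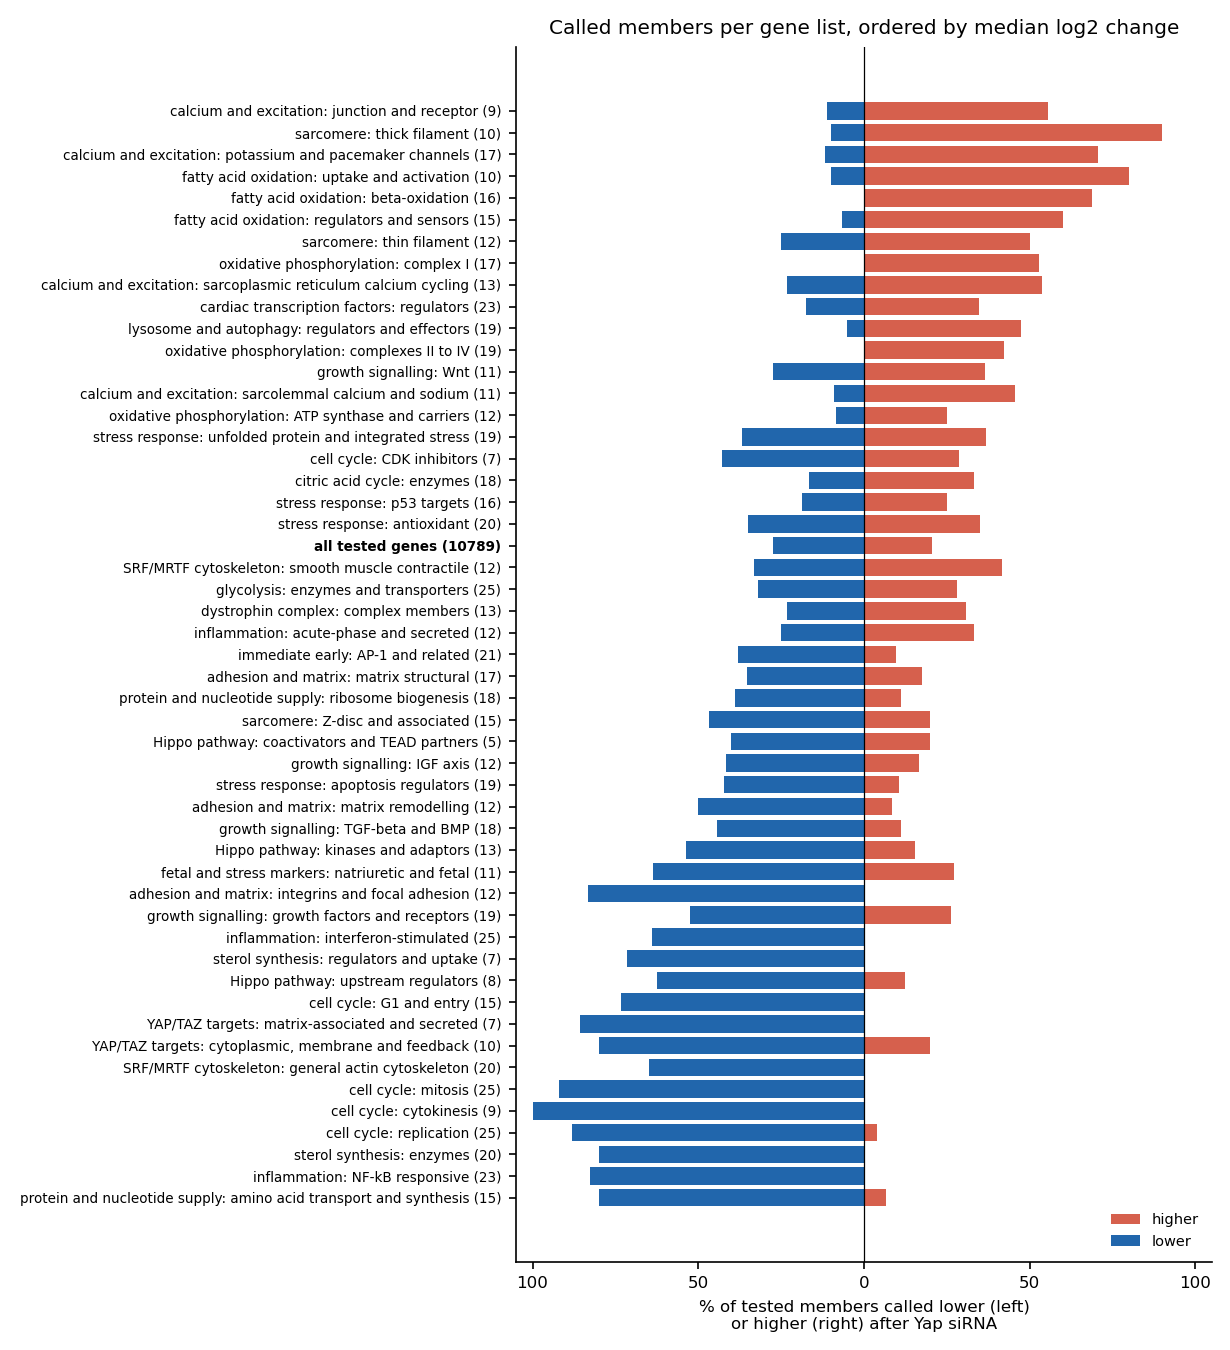
Share of tested members called higher (red, right) and lower (blue, left) after Yap siRNA in each gene list with at least 5 tested members, with the number tested in brackets and the lists ordered by median log2 change. All tested genes (20.5% higher and 27.5% lower) are in bold. Junction and receptor, thick filament, potassium and pacemaker channel and fatty acid uptake lists lie at the top. Amino acid, NF-kB, sterol and cell cycle lists lie at the bottom.

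The rule for the steepest changes named several further genes. Dhrs7c, a muscle dehydrogenase, had 23.9, 23.1 and 27.5 FPKM after Yap siRNA and 5.76, 3.04 and 3.9 FPKM after control siRNA, and Sphkap, an anchoring protein of protein kinase A, had 28.8, 37.7 and 36.6 FPKM after Yap siRNA and 4.79, 5.20 and 6.70 FPKM after control siRNA. They rose by 2.33 ± 0.15 and 2.43 ± 0.13, with Lpar2, a lysophosphatidic acid receptor, at 2.30 ± 0.15 and LOC688553 at 2.39 ± 0.14. Among the falls, Krt18, a simple epithelial keratin, had 2.37, 1.97 and 0.790 FPKM after Yap siRNA and 13.4, 13.5 and 13.4 FPKM after control siRNA, and Slc1a3, a glutamate transporter, had 8.25, 7.52 and 7.78 FPKM after Yap siRNA and 40.2, 36.7 and 38.1 FPKM after control siRNA. Both were far below the controls, as were Tril (-2.54 ± 0.11), a Toll-like receptor adaptor, Chrna1 (-2.16 ± 0.19), the muscle acetylcholine receptor subunit, Dok5 (-2.10 ± 0.18), Fads3 (-2.08 ± 0.13) and Gprc5a (-2.05 ± 0.18). Adjusted p-values for these 11 genes were at most 2.1e-06.

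The remaining genes in that ranking are hard to count. Myl6l had 211.9, 519 and 249.6 FPKM after Yap siRNA and was listed at 0 in all control libraries. It is a near copy of Myl6, a non-muscle myosin light chain gene, which had 991, 684 and 969.7 FPKM after Yap siRNA and 1211, 1159.6 and 1129.5 FPKM after control siRNA, so the division of reads between them is uncertain and no fold is given. The ribosomal RNA loci Rn5s and Rn5-8s were higher by 3.03 ± 0.37 and 2.57 ± 0.18 in libraries made from poly-A RNA. The microRNA loci Mir3074 and Mir6328, at 2.44 ± 0.47 and -2.72 ± 0.67, are likewise listed although mature microRNAs carry no poly-A tail, and the call of Mir6328 was lost without control siRNA replicate 1 (adjusted p = 0.054). LOC367195, which RefSeq names Rpl7-ps3, a ribosomal protein pseudogene, was at -3.31 ± 0.27, and Rpl37a, which has near-identical copies, at -2.36 ± 0.27.

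Markers of the other cell types that such cultures can hold were read in every library. Summed fibroblast markers overlapped, at 434.4 to 532.2 FPKM after Yap siRNA and 387.3 to 538.8 FPKM after control siRNA. Among 12 tested, 6 rose and none fell, led by Dcn (1.03 ± 0.12) and Thy1 (0.73 ± 0.12), a proteoglycan and a surface glycoprotein of fibroblasts. Epicardial markers summed to 10.2 to 16.0 FPKM after Yap siRNA and 25.2 to 33.5 FPKM after control siRNA, with 1 higher and 3 lower of 6 tested. Without Krt18, a split chosen after its values were seen, the other 6 measured overlapped, at 8.2 to 13.6 FPKM after Yap siRNA and 11.7 to 20.0 FPKM after control siRNA. Of the transcription factor genes that define the epicardium, Wt1 was at -0.48 ± 0.19 (adjusted p = 0.047), a call lost without Yap siRNA replicate 1, 2 or 3 or control siRNA replicate 2 (adjusted p = 0.055 to 0.25). Tbx18 was higher, at 0.41 ± 0.14 (adjusted p = 0.026), a call lost without Yap siRNA replicate 1 or control siRNA replicate 1 or 3 (adjusted p = 0.062 to 0.13). Erythroid markers summed to 84.5 to 144.7 FPKM after Yap siRNA and 147.7 to 179.0 FPKM after control siRNA. Of 3 tested only Hbb was called, at -0.66 ± 0.22 (adjusted p = 0.034), and its groups overlapped. That call was lost without Yap siRNA replicate 2 or 3 or control siRNA replicate 2 or 3 (adjusted p = 0.063 to 0.11). Neural and Schwann cell markers overlapped, at 11.3 to 14.6 FPKM after Yap siRNA and 11.9 to 13.9 FPKM after control siRNA. The part of these lists in the other results was not tested.

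Set directly against the Llgl1/2 siRNA libraries in the same fit, 5070 genes differed (47.0%), with 2046 higher (19.0%) and 3024 lower (28.0%) after Yap siRNA. This contrast reuses the Yap siRNA libraries, so it is not independent of the comparison with control siRNA. Of the 18 YAP/TAZ targets 8 were lower and 5 higher after Yap siRNA than after Llgl1/2 siRNA. Ctgf differed by -0.93 ± 0.10 (adjusted p = 1.0e-05), Tgfb2 by -1.64 ± 0.08 and Lats2 by -1.09 ± 0.07. Igfbp3, in contrast, was higher after Yap siRNA than after Llgl1/2 siRNA, by 1.51 ± 0.23 (adjusted p = 4.9e-04). Of 81 cell cycle genes 39 were lower and 2 higher in this contrast, and Cdkn1c differed by 0.94 ± 0.14 (adjusted p = 1.3e-04). Ccnd1, which fell against control siRNA, was not called here (-0.06 ± 0.09, adjusted p = 0.57). Of 12 integrin and focal adhesion genes 7 were lower and 1 higher, and Itgb1 was not called (0.03 ± 0.07, adjusted p = 0.75). Of the 23 NF-kB-responsive genes 20 were higher and 1 lower after Yap siRNA than after Llgl1/2 siRNA, with Cxcl10 at 0.69 ± 0.12. Endothelial markers were higher in 10 of 14 cases and lower in 0 in the same contrast, and summed to 456.6 to 534.4 FPKM after Yap siRNA and 316.1 to 334.2 FPKM after Llgl1/2 siRNA. Their part in the inflammatory genes was not tested. Myh7 was lower after Yap siRNA, at -1.01 ± 0.09 (adjusted p = 1.5e-06), and Myl7 higher, at 1.16 ± 0.14 (adjusted p = 4.9e-05), as were Irx3 (1.14 ± 0.08) and Lrrc10 (1.23 ± 0.07). Of 37 sarcomere genes 10 were higher and 15 lower in this contrast. Of 50 calcium and excitation genes 16 were higher and 11 lower, and of 41 fatty acid oxidation genes 14 and 6. Cacna1g, which rose against control siRNA, was lower here (-0.50 ± 0.10, adjusted p = 8.5e-04). Among other genes that rose against control siRNA, Myl2 (0.09 ± 0.10), Cpt1b (-0.02 ± 0.08), Cacna1h (-0.03 ± 0.12) and Chrm2 (0.02 ± 0.13) were not called.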

How the data were processed

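RNA of 9 libraries of cultured neonatal rat cardiac myocytes was measured on a BGISEQ-500 after low-input poly-A library preparation, per the labels. The deposited values were FPKM made by the authors, per the file headers, 1 column per library with 2 decimals. Bowtie2, HISAT and the build rn6 appear in the submitters' processing notes without role or version, and the counting tool is not given in the sources used here. 1 further column of values matched no sample and was not used. Of 31 symbols that were missing or read as dates, 29 were found by gene ID in RefSeq's table.

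Genes that reached 1 FPKM in 3 or more of the 9 libraries were kept (10789 of 14636). limma 3.58.1 in R 4.3.3 was fitted to log2(FPKM + 1) for all 9 libraries with a mean per group, trend and robust moderation and 6 residual degrees of freedom, and p-values were Benjamini-Hochberg adjusted over all tested genes. The pseudocount understates the change of low genes. The fit was tested on simulated data.

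Genes were named by rule. The rule took Yap1, the 12 largest rises and falls with an adjusted p under 0.05, a mean of at least 5 FPKM and no overlap, up to 4 called members per list role with the smallest p, and every tested Hippo, YAP/TAZ and isoform-pair gene. Other named genes were chosen after their values were seen. The gene lists, markers and motif were chosen with earlier results of these data known, so they were counted and not tested. Alternatives were another pseudocount, other filters, other scalings, fewer libraries in the fit, a stricter threshold, the replicate number as a block and leaving out each of the 6 Yap and control siRNA libraries in turn. Promoter windows and coordinates are RefSeq's for GRCr8, whereas the expression values were made on rn6. Some list members are counted but not reported singly here.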

Additional observations from a re-analysis of the deposited data

How the results depend on the processing

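The number of differing genes stayed within 1.5 times of 5181 under every alternative run, from 3705 at an adjusted p under 0.01 to 5558 with the replicate number as a block, and leaving out 1 library gave 4342 to 4974. With median-ratio scaling the split was 2570 higher and 2558 lower, and with quantile normalization 2460 higher and 2638 lower. Counts of large changes depended on the treatment of low values: with a pseudocount of 0.1 there were 401 higher and 319 lower genes past a log2 change of 1, and with a filter at 10 FPKM 162 higher ones. Against Llgl1/2 siRNA the count was 4502 to 5054 without 1 Yap or control siRNA library, with no Llgl1/2 library left out, and 5452 with the block. Same-numbered Yap and control siRNA libraries had weakly correlated deviations, of 0.171, 0.0434 and 0.0963. Between libraries of other numbers the values ran from -0.179 to 0.0691, and Yap siRNA replicate 2 correlated best with control siRNA replicate 3 (0.0691). Whether the replicate numbers pair the libraries was not tested. The block gave 2385 higher and 3173 lower genes. Among named genes 4897 recomputed values kept their direction and side of the threshold, 75 lost the call, 36 gained it and none changed sign with a call. The calls lost under another scaling included those of Lats1, Ankrd1, Hk1 and Myl3, and the block added calls for Igfbp3, Sav1, Taok3, Dmd, Nkx2-5, Ppargc1a and Srebf1. Of list medians, 889 moved by no more than the replicate spread, 54 moved by more and 5 changed sign. These were ATP synthase and carriers with quantile normalization (-0.001), Wnt at 10 FPKM (-0.080) and without Yap siRNA replicate 1 (-0.043, in a leave-one-out range of -0.043 to 0.236), and smooth muscle and pericyte markers (-0.358) and leukocyte markers (0.059) at 10 FPKM, where fewer members are left. The cause of the other shifts was not tested. Read depth is unknown, so what it limits cannot be given.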
